A study of Mus musculus with 24 samples.

Results

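The BCL2 family decides whether a cell opens the outer membrane of its mitochondria and dies by apoptosis. The m6A peaks of 10 genes of this family were examined in mouse kidney: the anti-apoptotic genes Bcl2, Bcl2l1 and Mcl1, the effectors Bax and Bak1, and the BH3-only genes Bbc3, Pmaip1, Bcl2l11, Bad and Bid. The genes were chosen by name, out of 21951 protein-coding genes, and a peak belonged to a gene where it overlapped an exon on the same strand in the GRCm38 annotation. All animals were male C57BL/6 mice aged 8 weeks, with 4 mice and 1 kidney list per mouse in each group. Control mice received daily saline and an intravenous vehicle. Mice of the injury group (IG) received daily saline and then cisplatin, a platinum drug that is toxic to kidney tubules, at 20 mg/kg. Mice of the treatment group (TG) received the plant alkaloid berberine for 14 days, at 20 mg/kg daily, and then the same dose of cisplatin. Kidneys were taken 72 h after the intravenous injection. IG was compared with control (IvC), which asks what cisplatin injury changed, and TG with IG (TvI), which asks what berberine pretreatment changed in injured kidneys.

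In MeRIP-seq, fragmented mRNA is pulled down with an antibody against N6-methyladenosine (m6A), and stretches with more reads than the background are called as peaks. Each peak carries a score, which is 10 times the negative log10 of its p, and the lowest score of any list was 13.02. The number of listed peaks was 8952 ± 458 in control, 7422 ± 687 in IG and 6380 ± 375 in TG (mean ± SD, n = 4 each). A score grows with depth, and the depth of the lists is unknown, so kidneys were compared by the percentile of a score in the list of its own kidney. Scores are printed as deposited. A percentile also moves with the number of weak peaks in a list, and the lists differed in length. Peaks of different kidneys that overlapped on the same strand were joined into a locus. All lists together held 91013 peaks at 16815 loci, of which 23.1% were listed in 1 kidney and 14.4% in all 12 kidneys. A locus without a listed peak may still hold one too weak to be called, and the lists do not separate methylation from the amount of the mRNA. The kidneys were whole tissue, so fewer cells of a type and less RNA per cell cannot be told apart.

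Anti-apoptotic members bind and hold in check the effectors BAX and BAK, which otherwise form pores in the mitochondrial membrane. BH3-only proteins respond to damage, and either neutralise the anti-apoptotic members or activate the effectors directly. Cisplatin damages the DNA of tubular cells, and p53 can then switch on Bbc3 and Pmaip1, which encode PUMA and NOXA. m6A is placed by the METTL3 and METTL14 complex and is known to affect the splicing, stability and translation of mRNA.

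Of the 10 genes, 7 had a peak in at least 1 kidney, at 13 loci with 43 peaks in all. Among all protein-coding genes, 7774 (35.4%) had a peak in at least 1 kidney. Of the 13 loci, 5 were listed in 4 or more kidneys, 1 in 2 kidneys and 7 in a single kidney. The 5 recurrent loci were exon 2 of Bcl2l1, exon 1 and the last exon of Bcl2, the last exon of Bid and exon 2 of Pmaip1. Those of Bcl2l1 and of Bcl2 exon 1 covered the coding bases of their exon, those of Bcl2 and Bid in the last exon lay almost wholly in the 3′ UTR, and those of Pmaip1 covered coding sequence only.

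**Figure D1:**
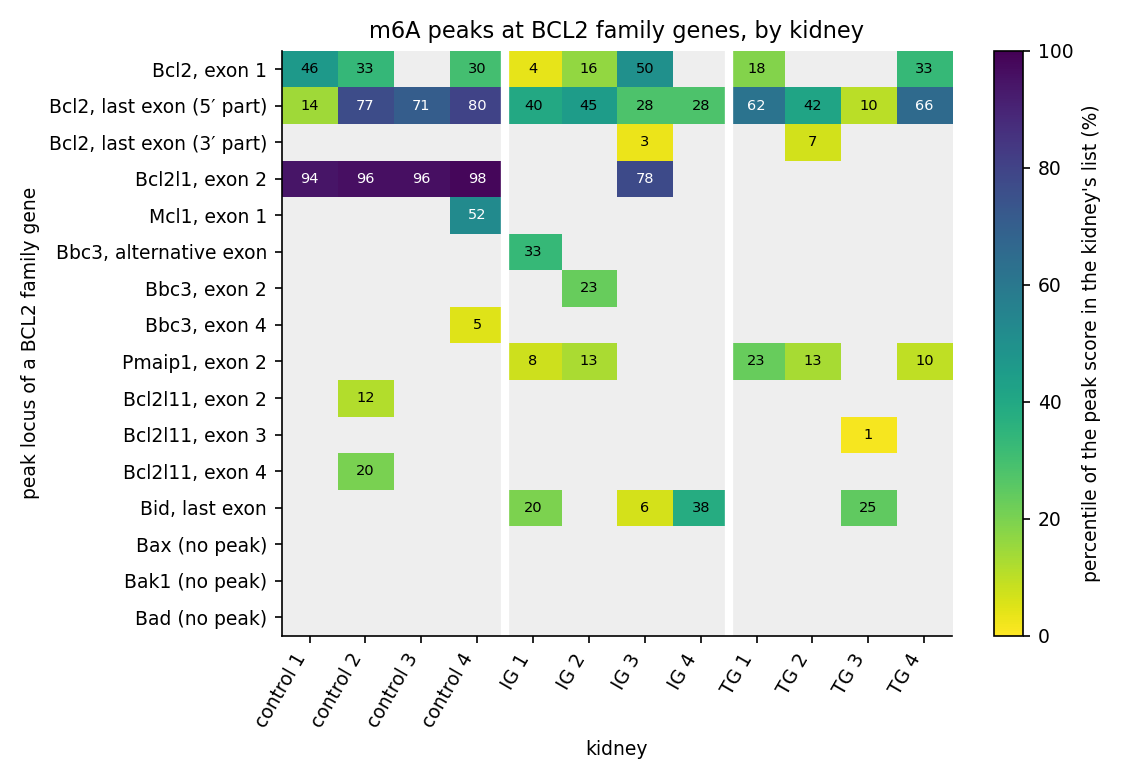
Each row is a peak locus of a BCL2 family gene, or a gene with no peak, and each column is a kidney. A coloured cell gives the percentile of the peak score within the list of that kidney (%), and a grey cell means that no peak was listed. The row of Bcl2l1 holds percentiles of 94 to 98 in the 4 control kidneys, 78 in 1 IG kidney and no peak in TG.

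The sequence GGACT, a common form of the m6A motif, was searched on both strands of the stretch shared by all listed peaks of a locus. In Bcl2l1 this stretch (chr2:152829082-152830102, minus strand, 1021 bases) held 2 GGACT on the strand of the gene and 0 on the other strand. The first lies in the 5′ UTR and the second in the coding sequence. In the last exon of Bcl2 the shared stretch (chr1:106541675-106543206, minus strand, 1532 bases) also held 2 GGACT on the strand of the gene and 0 on the other strand, side by side in the 3′ UTR. In Bid the shared stretch (chr6:120893041-120894292, minus strand, 1252 bases) held 1 GGACT on each strand, and that on the strand of the gene ends on the first base of the stop codon. Since only shared stretches were searched, each site lies in every listed peak of its locus by construction. Sites are shown for the Bcl2l1 locus, the 12-kidney locus in the last exon of Bcl2 and the Bid locus. They were read from GRCm38 5′ to 3′, with GGACT in capitals.
Bcl2l1, 5′ UTR of exon 2, chr2:152830004-152830032: gttttggacaatGGACTggttgagcccat
Bcl2l1, coding part of exon 2, chr2:152829874-152829902: tcgaagagaataGGACTgaggccccagaa
Bcl2, 3′ UTR of the last exon, chr1:106542699-106542727: ctggtcttccatGGACTggagaagGGACT
Bid, first bases of the last exon with the stop codon, chr6:120894271-120894292: gagatGGACTgaggagcccgca
The motif is common. Cut into windows of the same length, the transcripts of all protein-coding genes held at least 2 GGACT in 30.3% of windows for Bcl2l1 and in 48.4% for Bcl2, and at least 1 in 72.6% for Bid. The stretch shared by the 8 peaks of Bcl2 exon 1 (chr1:106712164-106713952, minus strand, 1789 bases) held 3 GGACT, all in the 5′ UTR, and 30.8% of windows of that length held at least as many. Exon 2 of Pmaip1 was not searched here.

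In Bcl2l1 and in Bcl2 exon 1 every listed peak ran over the splice donor, the point where the exon ends in the spliced mRNA. Both genes have an annotated read-through transcript that keeps the bases after the donor and meets a stop codon there. Its coding sequence goes on for 63 bases (21 codons) past the donor in Bcl2l1, and for 21 bases (7 codons) in Bcl2. The stretches from 30 exonic bases before the donor to the read-through stop codon are shown because all 13 peaks cover them. Capitals mark the donor GT and the stop codon.
Bcl2l1, chr2:152829361-152829456, minus strand: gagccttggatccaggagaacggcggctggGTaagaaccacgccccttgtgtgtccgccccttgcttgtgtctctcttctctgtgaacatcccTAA
Bcl2, chr1:106712281-106712334, minus strand: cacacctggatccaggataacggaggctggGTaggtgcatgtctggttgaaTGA
The 30 exonic bases agree at 24 positions between the paralogs. The peaks of Bcl2l1 reached 529, 402, 508 and 345 bases past the donor in control kidneys 1 to 4 and 1240 bases in IG 3. Those of Bcl2 exon 1 reached between 141 and 330 bases past it, and the longest were those of IG 2 and IG 3. The lists do not show which transcript the reads came from.

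**Figure D2:**
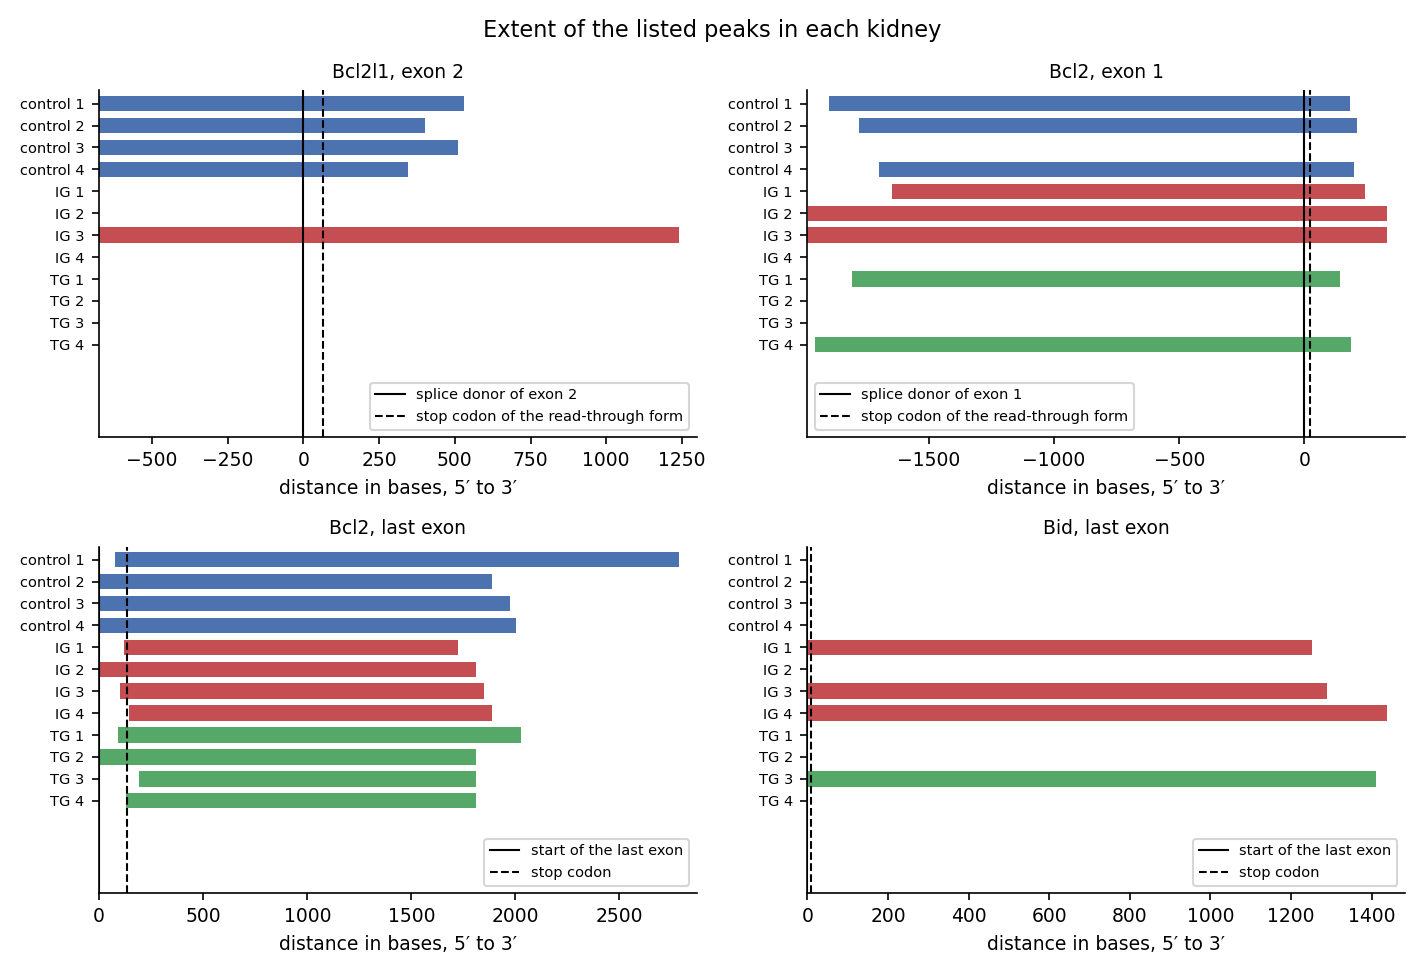
Bars show the extent of each listed peak in each kidney (rows), in bases from the splice donor (Bcl2l1, Bcl2 exon 1) or from the start of the last exon (Bcl2, Bid), with blue for control, red for IG and green for TG. Dashed lines mark stop codons. All 5 peaks of Bcl2l1 and all 8 of Bcl2 exon 1 pass the donor and the read-through stop codon, and 10 of the 12 peaks drawn for the last exon of Bcl2 hold its stop codon.

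Bcl2l1 encodes BCL-XL, an anti-apoptotic protein of the mitochondrial membrane, and its exon 2 had the highest-scoring peak of the family. The peak (locus chr2:152828187-152830102, minus strand) covered all 564 coding bases of exon 2 and 112 bases of the 5′ UTR in each of its kidneys. Its score was 924.59, 1274.38, 1200.86 and 2321.62 in control kidneys 1 to 4. It was 240.83 in IG 3, and no peak was listed in the other 3 IG kidneys or in any of the 4 TG kidneys. The control peaks stood at percentiles of 94.2 to 98.1 of their lists and the peak of IG 3, the only IG score at this locus, at 77.7. The peak was present in 4 of 4 control kidneys against 1 of 4 IG kidneys, which did not pass the test (two-sided Fisher's exact test, p = 0.143, adjusted p = 1 over 16072 loci). With 4 kidneys in each group, Fisher's exact test goes under 0.05 only for 4 kidneys with a peak against 0 (p = 0.0286), and such a locus is called in what follows. Among all loci tested in IvC, 8.95% had a peak in at least 3 fewer IG than control kidneys. IG 3 had the longest list of its group, with 8357 peaks. IG 3 was the only IG kidney with the peak, so leaving it out gives 0 of 3 by construction (exact p = 0.0286). Leaving out any other control or IG kidney gave exact p = 0.143.

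With equal list lengths, for which the 5901 highest-scoring peaks of every kidney were used, the counts of Bcl2l1 were again 4 of 4 control and 1 of 4 IG kidneys. Against control, TG lacked the peak in 4 of 4 kidneys, so the locus is called there (two-sided Fisher's exact test, p = 0.0286, not adjusted). Among all loci, 3.73% had a peak in all control and no TG kidney. For TvI the counts were 0 of 4 and 1 of 4 kidneys (exact p = 1). The same presence in all 12 kidneys was found at 29 other loci, and those with the highest mean score lay in Myh9 (non-muscle myosin heavy chain), Mbnl2 (a splicing regulator) and Cdcp1 (a membrane glycoprotein). Their mean scores over the kidneys with a peak were 355.5, 327 and 231.

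Bcl2, the founding anti-apoptotic member, was the only gene of the 10 with a peak in every kidney. In its last exon (locus chr1:106540612-106543398, minus strand) the score was 20.5, 225.75, 170.07 and 300.48 in control kidneys 1 to 4. It was 49.75, 58.6, 31.23 and 31.35 in IG kidneys 1 to 4. In TG kidneys 1 to 4 it was 107.19, 50.72, 18.01 and 137.09. Control kidneys 2 to 4 were above all IG kidneys and control 1 was below all of them, whereas the TG kidneys lay on both sides of the IG range. The percentile of the peak was 60.4 ± 31.0 in control, 35.1 ± 8.45 in IG and 44.8 ± 25.3 in TG (mean ± SD, n = 4 each). The difference of -25.3 percentile points in IvC did not pass the test (two-sided exact permutation test, p = 0.143, adjusted p = 0.317 over 3036 loci with a peak in all 8 kidneys). Among those loci 23.4% had an unadjusted exact permutation p under 0.05, 459 of them lower and 252 higher in IG, and none passed adjustment (lowest adjusted p = 0.122). The median difference over all those loci was -2.06 points. Without control 1, the only control kidney below the IG range, the difference was -40.7 points (exact permutation p = 0.0286, adjusted p = 0.185). Leaving out any other control or IG kidney gave -28.5 to -18.8 points (exact permutation p = 0.171 to 0.314). Scores of 71.3 or more, the median of all lists, were found in 3 of 4 control, 0 of 4 IG and 2 of 4 TG kidneys.

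In TvI the peak of the last exon of Bcl2 was 9.73 percentile points higher in TG than in IG, which did not pass the test (two-sided exact permutation test, p = 0.457, adjusted p = 0.815 over 2776 loci). Of those loci 7.2% had an unadjusted exact permutation p under 0.05, and none passed adjustment (lowest adjusted p = 0.397). Without TG 3 the difference was 21.2 points, and without TG 4 it was 2.82 points (exact permutation p = 0.0857 and 0.857). The peaks were 1606 to 2711 bases long and the longest was that of control 1, which also had the lowest control score. They covered between 0 and 132 coding bases, and the rest was 3′ UTR, with the stop codon inside 10 of these 12 peaks.

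Bcl2 also had a peak at exon 1 (locus chr1:106711975-106714290, minus strand), which covered 576 coding bases and 1072 to 1394 bases of the 5′ UTR. It was listed in 3 control, 3 IG and 2 TG kidneys. Its score was 63.09, 39.82 and 36.02 in control 1, 2 and 4. The scores of IG 1, 2 and 3 were 14.83, 22.13 and 68.26, and those of TG 1 and TG 4 were 23.03 and 39.81. It scored lower than the peak of the last exon in 6 of these 8 kidneys and higher in control 1 and IG 3. The groups overlapped, and presence did not pass the test in either comparison (two-sided Fisher's exact test, p = 1 for both). One more Bcl2 locus, in the 3′ part of the last exon, was listed in IG 3 and TG 2 only, with scores of 14.08 and 15.82, just above the lowest score of any list.

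Mcl1, whose short-lived anti-apoptotic protein is needed by many cell types, had 1 peak. It covered 631 coding bases of exon 1 (chr3:95658721-95659487, plus strand) in control 4, with a score of 82.8. No other kidney listed a peak in Mcl1. Control 4 had the longest list of all, with 9579 peaks, and the Mcl1 peak stood at a percentile of 52.1 in it.

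**Figure D3:**
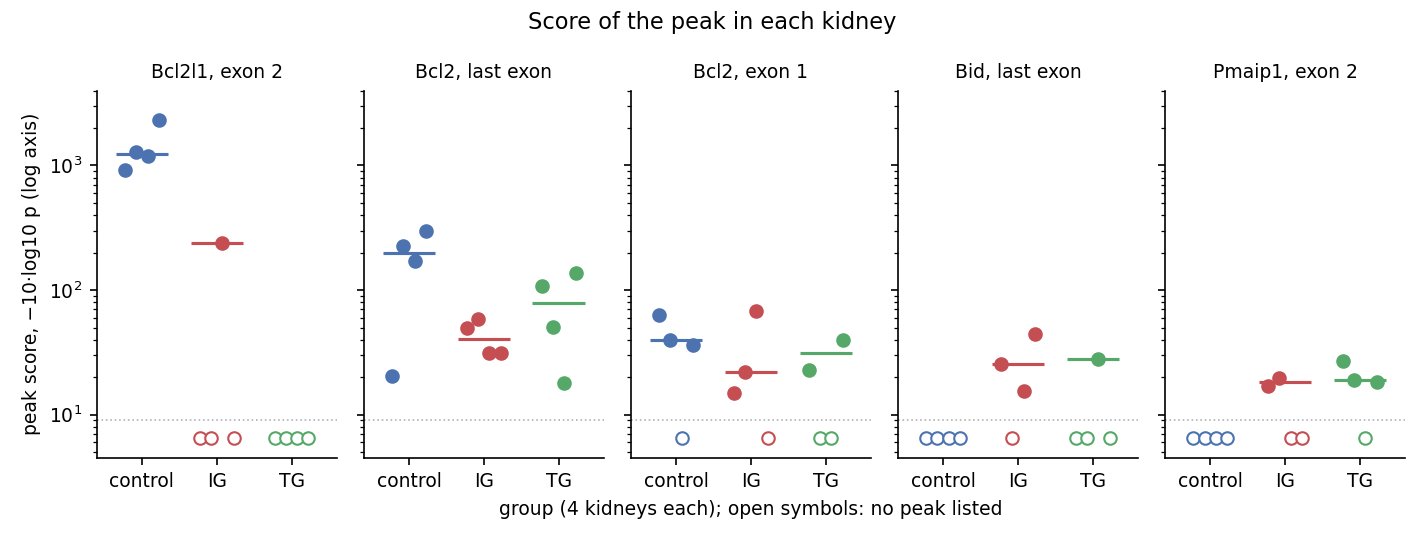
Filled symbols give the score of the peak in each kidney on a log axis, horizontal lines the median of the kidneys with a peak, and open symbols the kidneys with none listed. Bcl2l1 scores of 924.59 to 2321.62 in control stand above those of the other loci, and the Bcl2 last exon has a peak in all 12 kidneys. The Bid peak is listed in 0 control, 3 IG and 1 TG kidneys, and the Pmaip1 peak in 0, 2 and 3.

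The effectors Bax and Bak1 had no peak in any of the 12 kidneys, on either strand of the gene. BAX and BAK are the proteins that perforate the mitochondrial membrane. The longest exon is 270 bases in the Bax transcript with the longest CDS and 1226 bases in that of Bak1. Bad, a BH3-only gene whose protein is held inactive by phosphorylation, had none either.

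Bid encodes a BH3-only protein that caspase-8 cleaves, which links death receptors to mitochondria. Its last exon (locus chr6:120892854-120894292, minus strand) had a peak with scores of 25.29, 15.57 and 44.18 in IG 1, 3 and 4. In TG the peak was listed in TG 3 only, with a score of 27.9, and no control kidney listed it. The peaks stood at percentiles of 6.40 to 37.9 of their lists, so all were among the lower-scoring peaks. Each covered the last 9 coding bases, the stop codon and 1240 to 1427 bases of the 3′ UTR. A peak in 3 of 4 IG against 0 of 4 control kidneys did not pass the test (two-sided Fisher's exact test, p = 0.143, adjusted p = 1). Of all loci in IvC 3.82% had a peak in at least 3 more IG than control kidneys. IG 2 was the only IG kidney without the peak, so leaving it out gives 3 of 3 and 0 of 4 by construction (exact p = 0.0286). Leaving out any other control or IG kidney gave exact p = 0.143. With equal list lengths the counts were 2 of 4 and 0 of 4 (exact p = 0.429), and no peak of Bid reached the median score of all lists, 71.3. In TvI the counts were 1 of 4 and 3 of 4 (exact p = 0.486).

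Pmaip1 encodes NOXA, a p53 target that binds MCL1. Its exon 2 (chr18:66460843-66460998, plus strand, 156 coding bases) was listed with scores of 17.12 and 19.59 in IG 1 and IG 2. The scores of TG 1, 2 and 4 were 27.17, 18.99 and 18.17. No control kidney had a peak in Pmaip1. Every one of the 5 peaks was exactly the exon from its first to its last base. Edges of this kind were usual in these lists, since 72395 of 91013 peaks had their lower coordinate at the edge of an annotated exon. Whether peaks were trimmed to annotated exons is not given in the sources used here, so the extents of this and the other peaks may follow the annotation. Presence differed by 2 of 4 kidneys in IvC (two-sided Fisher's exact test, p = 0.429) and by 1 of 4 kidneys in TvI (exact p = 1). Of all loci, 5.69% had a peak in exactly 2 more IG than control kidneys, and 17.0% in exactly 1 more TG than IG kidney. The peaks stood at percentiles of 7.76 to 23.4. With equal list lengths Pmaip1 had a peak in no control or IG kidney and in 2 TG kidneys. The IG peaks, at percentiles of 7.76 and 12.8, were low enough to be removed by this cut. Control kidneys had no Pmaip1 peak in their full lists, so the cut does not show whether list length produced the difference.

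Bbc3, which encodes PUMA, had 3 peaks that each came from a single kidney. IG 1 listed an alternative exon of 84 bases outside the longest coding transcript (chr7:16310455-16310538, score 38.81) and IG 2 exon 2 (chr7:16312126-16312414, score 27.81). Control 4 listed exon 4 with the stop codon (chr7:16317118-16317826, score 15.22). Bcl2l11, which encodes BIM, likewise had 3 peaks of single kidneys. Control 2 listed exon 2 (score 19.15) and exon 4 (score 25.09), and TG 3 listed exon 3 (score 13.59). No peak of either gene was found in a second kidney.

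Per kidney, 2, 3, 2 and 4 of the 10 genes had a peak in control 1 to 4, 4, 3, 3 and 2 in IG 1 to 4, and 2, 2, 3 and 2 in TG 1 to 4. The mean was 2.75 ± 0.957 genes in control, 3.00 ± 0.816 in IG and 2.25 ± 0.500 in TG (SD, n = 4 each). The groups overlapped. For all protein-coding genes the corresponding numbers were 4966 ± 165, 4378 ± 245 and 3836 ± 231.

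None of the 12 member loci tested in IvC and none of the 9 tested in TvI were called, that is, listed in 4 kidneys against 0. That outcome was found at 4.08% of all loci in IvC, 438 of them with the peak in control and 217 with the peak in IG, and at 0.666% in TvI. No locus passed adjustment in either comparison by Fisher's exact test (lowest adjusted p = 0.701 and 1). In TvI no member locus differed by 3 or more kidneys, against 3.21% of all loci with at least 3 fewer and 1.28% with at least 3 more kidneys in TG. IvC and TvI share the IG kidneys, so the values of a gene in both comparisons are not independent.

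**Figure D4:**
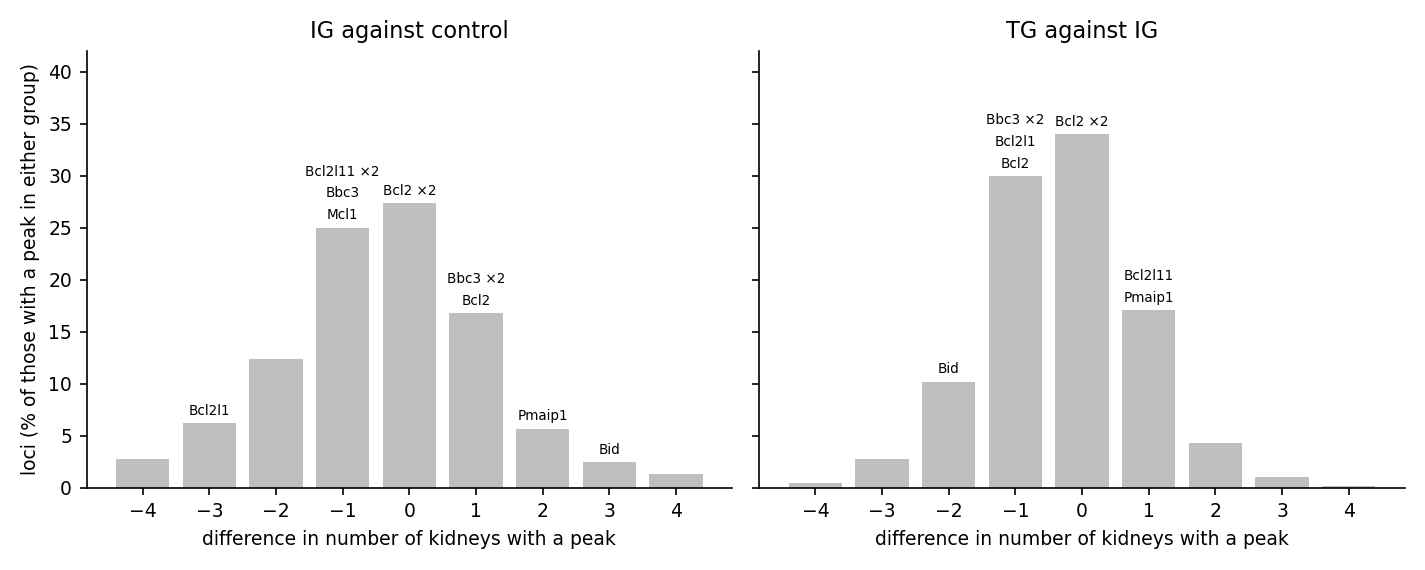
Bars give the share of all loci (%) by the difference in number of kidneys with a peak, for IG minus control (left) and TG minus IG (right), and gene names mark where the member loci fall (×2: 2 loci). Bcl2l1 at -3 and Bid at 3 are the member loci farthest from 0 in IvC, and no member locus lies at -4 or 4.

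Other genes of the apoptosis pathway were taken from a list of 51, of which 29 had a peak in at least 1 kidney. None of their loci was called in IvC (0 loci) or in TvI (0 loci). Of 66 loci of the list tested in IvC, 2 (3.03%) had a peak in at least 3 more IG kidneys, against 3.82% of all loci, and 0 in at least 3 fewer, against 8.95%. Of 56 loci tested in TvI, 4 (7.14%) had a peak in at least 3 fewer TG kidneys, against 3.21% of all loci, and 0 in at least 3 more, against 1.28%. Apaf1, the scaffold of the apoptosome, was the only gene on the list with a locus that differed by at least 3 kidneys in both comparisons. This locus (chr10:91067063-91067264) had scores of 44.76, 20.59 and 77.35 in IG 2, 3 and 4, and no peak in IG 1 or in any control or TG kidney. Counted over both of its loci, Apaf1 was listed in 0 control, 3 IG and 1 TG kidneys. The other genes named from this list were chosen after their values were seen. Cflar, an inhibitor of caspase-8, had a locus with a peak in 4 control, 3 IG and 0 TG kidneys, with control scores from 104.55 to 405.02 and IG scores from 38.11 to 123.04. Aifm1, a mitochondrial flavoprotein that can be released during cell death, had a locus in 4 control, 4 IG and 1 TG kidneys. Huwe1, a ubiquitin ligase of MCL1, had a locus in 3 control, 4 IG and 1 TG kidneys. Counted over all 7 of its loci, Huwe1 was listed in 4 control, 4 IG and 3 TG kidneys.

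Of the 15 remaining BCL2 family genes on the list, 7 had a peak in at least 1 kidney. Bcl2a1a, an anti-apoptotic gene of haematopoietic cells, was listed in 0 control, 3 IG and 4 TG kidneys. Its copies Bcl2a1d (0, 2 and 4 kidneys) and Bcl2a1b (1, 3 and 2 kidneys) are nearly identical to it, so reads can be split among them and the gene of origin is uncertain. Of the 5 leukocyte marker genes, only Ptprc had a peak, in 1 control kidney. Bcl2l14 was listed in 1 control, 3 IG and 4 TG kidneys, Bmf and Bcl2l13 each in 2 control, 0 IG and 1 TG kidneys, and Bcl2l15 in 1 IG kidney. In the death receptor arm, which acts on Bid through caspase-8, 6 of 8 genes had a peak, and Casp8 and Ripk1 had one in all 12 kidneys. Fadd, the adaptor of death receptors, was listed in 3 control, 3 IG and 0 TG kidneys. Casp9 and Cycs, which act at the apoptosome, had no peak in any kidney, and neither had Trp53.

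**Figure D5:**
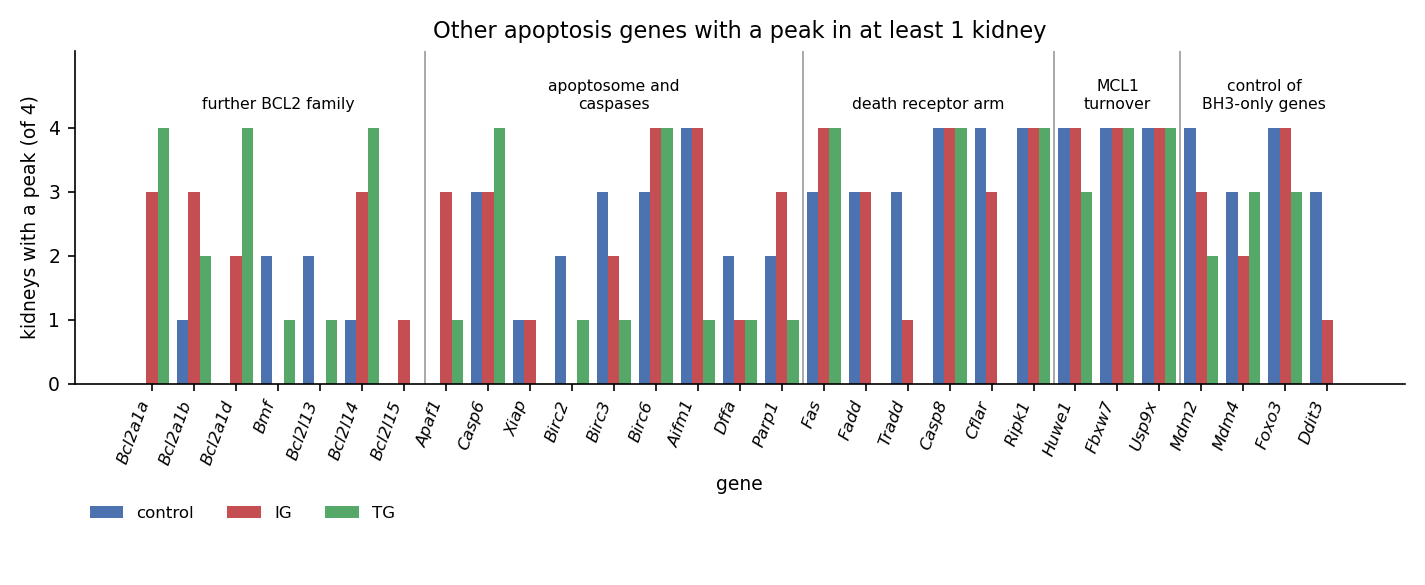
Bars give the number of kidneys with a peak (of 4) in control (blue), IG (red) and TG (green) for the 29 other apoptosis genes with a peak in at least 1 kidney, grouped by role. Casp8, Ripk1, Fbxw7 and Usp9x reach 4 kidneys in all groups, and Cflar reaches 4 control, 3 IG and 0 TG kidneys.

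Of 23 marker genes of kidney cell types, 11 had a peak. The proximal tubule markers were nearly absent (2 of 5 genes, each in 1 TG kidney), so the tissue label could not be checked by them in these lists. The endothelial marker Pecam1 and the fibroblast marker Pdgfrb were listed in all 12 kidneys, whereas Kdr and Col1a1 were listed in none and Emcn in 1 control and 1 TG kidney. Havcr1, the gene of the injury marker KIM-1, had a peak in 0 control, 4 IG and 3 TG kidneys, and Slc12a1, a transporter of the thick limb, in 1 control, 4 IG and 0 TG kidneys. The other markers of injured tubules, Lcn2 and Krt20, and the thick limb marker Umod had no peak. Of 16 marker loci tested in IvC, 3 (18.8%) had a peak in at least 3 more IG kidneys, against 3.82% of all loci, and 0 in at least 3 fewer, against 8.95%. Of 16 tested in TvI, 1 (6.25%) had a peak in at least 3 fewer TG kidneys, against 3.21%, and 0 in at least 3 more, against 1.28%. A locus of Havcr1 was called in IvC and a locus of Slc12a1 in TvI. Of the podocyte markers, Nphs1 was listed in 1 control, 4 IG and 2 TG kidneys and Podxl in 4, 2 and 4 kidneys. The part of cell composition and mRNA amount in the results for Bcl2l1, Bid and Pmaip1 was not tested.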

How the data were processed

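m6A MeRIP-seq lists of 12 kidneys (4 per group) were used, and the 12 input libraries were not analysed here. Per the labels and the methods of the study, the authors trimmed reads with cutadapt 1.9.3, aligned them with HISAT2 2.0.4 to mm10 and called peaks with MACS. The settings of MACS are not given in the sources used here. The deposited score of a peak is 10 times the negative log10 of its p. The lists hold no counts, so depth is unknown and 4 kidneys per group limit the precision. The p-values refer to arrangements of these kidneys over the groups, and the SDs give the spread between kidneys.

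Peaks that overlapped by at least 1 bp on the same strand were joined into loci and assigned to exons of GENCODE M21. Where a kidney had several peaks at a locus, the highest score was used. Presence was compared by two-sided Fisher's exact test and score percentiles by two-sided exact permutation (70 arrangements), with Benjamini-Hochberg adjustment over all loci tested. Both tests were run on simulated data, only as a check that they ran as intended. Their power to detect differences of the size reported here was not tested. Loci listed in 4 or more kidneys were described in full, and the others by gene. From the pathway list, genes called in a comparison or differing by at least 3 kidneys in both were named, and other names are marked as chosen later. Members and lists were chosen with earlier results of these data known. Motifs were counted in the GRCm38.p6 sequence, with windows from the transcript with the longest CDS of each gene. Python 3.11.15, NumPy 2.4.6, SciPy 1.17.1 and matplotlib 3.10.9 were used.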

Additional observations from a re-analysis of the deposited data

Results flagged for a closer look

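Dixon's criterion for a value far from the others was applied to 11 sets of 4 kidneys, and chance alone would mark about 1 set in 20. It marked 2. In the last exon of Bcl2, control 1 stood at a percentile of 14.3 in its list, while the other control kidneys stood between 70.7 and 79.9 (gap over range 0.859). In TG the number of the 10 genes with a peak was 3 in TG 3 and 2 in each of the other kidneys, so the gap over range was 1 and rests on a difference of 1 gene.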

How the results depend on the processing

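With peaks that scored below 71.3 (the median over all kidneys) left out, the difference in the number of the 10 genes with a peak was -1.75 in IvC (0.25 with all peaks) and 0.25 in TvI (-0.75 with all peaks). Bid, Pmaip1 and Bcl2 exon 1 then had no peak in any kidney, the Bcl2 last exon had one in 3 control, 0 IG and 2 TG kidneys, and Bcl2l1 kept its counts of 4, 1 and 0. Leaving out each kidney in turn gave 0 to 1 called loci in IvC, namely Bid without IG replicate 2 and Bcl2l1 without IG replicate 3, and 0 in TvI. In each case the kidney left out was the only IG kidney unlike the others at that locus, so the call follows by construction. With each kidney left out, percentile differences of the Bcl2 last exon ranged from -40.7 to -18.8 in IvC and from 2.82 to 21.2 in TvI, and the gene number differences from -0.0833 to 0.667 and from -1.08 to -0.417. With equal list lengths Bcl2 exon 1 had a peak in 2 control, 1 IG and 2 TG kidneys, Pmaip1 in 0, 0 and 2, Bid in 0, 2 and 1, and Bcl2l1 in 4, 1 and 0, and the percentile difference of the Bcl2 last exon had no value, since the peak was no longer listed in all 8 kidneys. Joining regardless of strand, within 100 bp or by 50% reciprocal overlap called 0 member loci. Replicate numbers did not pair the kidneys (correlations of same-numbered kidneys -0.0211 to 0.0490, 0 of 12 pairs over 0.1), and with the replicate block no locus could be called, since the smallest sign-flip p for 4 pairs is 0.125 (0 called), and the percentile differences were -25.3 (exact sign-flip permutation p = 0.25) and 9.73 (p = 0.5). Depth is unknown, so a peak just under the threshold and a peak that is absent cannot be told apart.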
